A study of Drosophila melanogaster with 8 samples.

Results

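Decapentaplegic (Dpp) is the fly's main signal of the bone morphogenetic protein family. A ligand of this family brings together a type I and a type II receptor, the type I receptor phosphorylates the Smad protein Mad, and Mad enters the nucleus with its partner Medea (Med). In the embryo this signal patterns the dorsal ectoderm and amnioserosa, limits the neural territory, and later acts in dorsal closure, trachea, gut and visceral mesoderm. Schnurri (shn) is a zinc finger protein that joins Mad and Med to repress brinker (brk), and Brk itself represses many genes that Dpp turns on. Dad is an inhibitory Smad whose gene is switched on by the pathway and which acts back on it.

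The 10 genes described here are the rows of the deposited tables named dpp, gbb, tkv, sax, put, Mad, Med, shn, brk and Dad, 10 of 17321 genes. They are the ligand genes dpp and gbb, the type I receptor genes tkv and sax, the type II receptor gene put, the Smad genes Mad and Med, the nuclear factor genes shn and brk, and the feedback inhibitor gene Dad. All 10 passed the filter on low values in every comparison. Their identifiers in the reference gene names are FBgn0000490 (dpp), FBgn0024234 (gbb), FBgn0003716 (tkv), FBgn0003317 (sax), FBgn0003169 (put), FBgn0011648 (Mad), FBgn0288966 (Med), FBgn0003396 (shn), FBgn0024250 (brk) and FBgn0020493 (Dad).

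RNA was sequenced from 8 collections of whole Drosophila melanogaster embryos of stages 8 to 16, 50 mg each, in 2 experiments. Quad embryos carried da-Gal4, a driver active throughout the embryo, with UAS transgenes for the neural transcription factors ase, Kr, wor and SoxN (n = 2), and their control (Ctrl, n = 2) was da-Gal4 over the strain OregonR. QuadD embryos carried da-Gal4 with UAS-ase-Vp16, UAS-Kr, UAS-wor-EnR and UAS-SoxN-EnR (n = 2), that is, ase with an activation domain and wor and SoxN with a repressor domain, and their control (Ctrl-D, n = 2) was again da-Gal4 over OregonR. All groups thus share the driver. The labels call the replicates biological and do not say how many embryos or parents each collection pooled; the OregonR chromosomes are in the controls alone, so strain and transgenes cannot be told apart.

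The labels were checked through the misexpressed genes. In Quad, ase stood at 108 ± 1.54 RPKM against 31.2 ± 4.12 RPKM in Ctrl, wor at 180 ± 10.7 against 44.2 ± 3.03 RPKM and Kr at 103 ± 9.44 against 40.6 ± 7.73 RPKM (mean ± SD, n = 2), all higher, while SoxN missed the threshold (log2 fold change 0.35, adjusted p = 0.0536). In the libraries labelled QuadD, ase, wor and SoxN were higher than in Ctrl-D, and Kr was not (66.1 ± 1.85 against 63.3 ± 8.29 RPKM, adjusted p = 0.637). The effects on Kr differed between the experiments by 1.26 ± 0.20 on the log2 scale (adjusted p = 0.0138). The controls also differed in Kr, with Ctrl against Ctrl-D at -0.635 ± 0.144, which did not pass (adjusted p = 0.0642). The deposited counts summed to between 2765722 and 6740835 per library but were incomplete for many genes. Among the 10 genes the counts of brk alone tracked its RPKM, so that the depth behind the others is unknown.

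Levels are the authors' RPKM, reads scaled by transcript length and library size, which allow genes to be set beside each other. In Ctrl the receptor gene tkv was the most abundant of the 10 at 185 ± 3.14 RPKM, followed by the ligand gene gbb at 154 ± 5.64 RPKM (mean ± SD, n = 2). The receptor and Smad genes put, Mad, sax and Med formed a middle tier from 76.3 to 51.2 RPKM, in which put and Mad overlapped between libraries. The genes brk (43.3 RPKM), Dad (32.6 RPKM), dpp (27.5 RPKM) and shn (16.1 RPKM) came last, with no overlap between neighbours in that order. In Ctrl-D, gbb stood above tkv (208 ± 7.51 against 177 ± 3.53 RPKM), and Mad with sax, Med with brk, and dpp with Dad overlapped between libraries. In both misexpression groups gbb came first and tkv second, and in QuadD the order put, Mad, sax, Med of Ctrl read Med, Mad, sax, put.

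**Figure D1:**
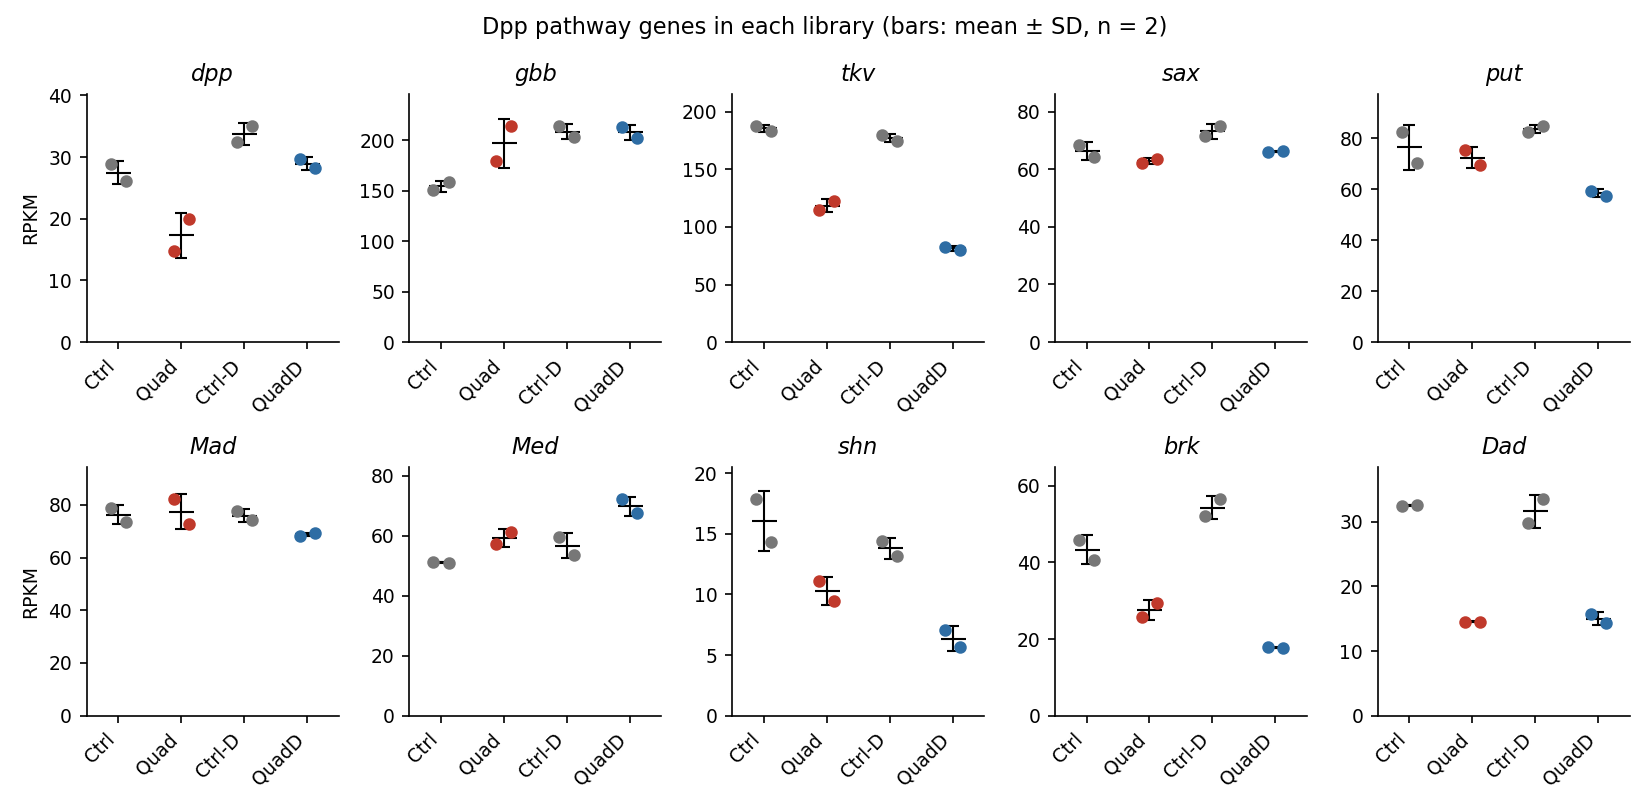
RPKM (linear axis from 0) of the 10 Dpp pathway genes in each library; each point is 1 library, and the black bars give the mean ± SD of the 2 libraries of a group. The Quad and QuadD points of tkv, shn, brk and Dad lie below all points of their own controls, while those of sax and Mad lie close to the control levels.

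Fold changes are log2 values ± SE from limma on log2(RPKM + 1), a scale that understates changes of low genes, and adjusted p-values were corrected over all genes tested with the Benjamini-Hochberg method. In Quad, 5 of the 10 genes fell (dpp, tkv, shn, brk and Dad) and 1 rose (gbb); over all 10436 genes tested, 47.5% passed, 22.6% falling and 24.9% rising. In QuadD, 5 fell (tkv, put, shn, brk and Dad) and 1 rose (Med); over all 10207 genes tested, 55.0% passed, 27.7% falling and 27.4% rising. Thus 4 of the 10, tkv, shn, brk and Dad, fell in both experiments, as did 19.0% of the 9972 genes tested in both. The genes sax and Mad passed in neither. The median log2 fold change of the 10 was -0.34 in Quad and -0.36 in QuadD, against 0.053 and 0.034 for all genes tested. The experiments do not share control libraries. In these bulk samples fewer cells that express a gene and less of its RNA per cell cannot be told apart.

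The ligand gene dpp measured 14.8 and 19.9 RPKM in Quad replicates 1 and 2, against 28.8 and 26.1 RPKM in Ctrl. Both Quad libraries lay below both controls, though the Quad replicates themselves differed by more than the controls did. The fall was -0.65 ± 0.18 on the log2 scale (95% interval -1.08 to -0.22, adjusted p = 0.0256), and the call was lost without Ctrl replicate 1 (-0.58), without Ctrl replicate 2 (-0.72) and with no filter on low values. In QuadD, dpp measured 29.6 and 28.1 RPKM against 32.5 and 35.0 RPKM in Ctrl-D. Those groups did not overlap either, but the difference of -0.22 ± 0.10 did not pass (95% interval -0.47 to 0.032, adjusted p = 0.116). The test of Quad effect minus QuadD effect gave -0.43 ± 0.21 for dpp and did not pass (95% interval -0.90 to 0.039, adjusted p = 0.348).

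The second ligand gene, gbb, encodes Glass bottom boat, which pairs with the receptor Sax in several tissues. It measured 179.6 and 214 RPKM in Quad and 150.3 and 158 RPKM in Ctrl. Every Quad library exceeded every Ctrl library, and the rise of 0.34 ± 0.11 was close to the threshold (adjusted p = 0.0439). Its call was lost in 6 of 13 alternatives: without Quad replicate 2 (0.22), without Ctrl replicate 1 (0.31), without Ctrl replicate 2 (0.38), with no filter, with RLE scaling and without the trend in the variance. In QuadD, gbb measured 213 and 203 RPKM, and in Ctrl-D 214 and 203 RPKM. These ranges coincided (-0.0040 ± 0.080, adjusted p = 0.971; 95% interval -0.20 to 0.19). Between the driver-only groups, gbb was lower in Ctrl than in Ctrl-D by 0.43 ± 0.10 (adjusted p = 0.0645), a difference over the same Ctrl libraries as its rise in Quad, and one that passed when Quad replicate 1 or Quad replicate 2 was left out of the fit.

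Of the receptor genes, tkv moved most. Thickveins, its product, is the type I receptor through which Dpp mainly signals. It measured 114 and 123 RPKM in Quad, against 188 and 183 RPKM in Ctrl. The fall was -0.64 ± 0.09 (1.56-fold, adjusted p = 0.00226). In QuadD it measured 82.9 and 80.0 RPKM, against 179.9 and 174.9 RPKM in Ctrl-D. The fall there was -1.11 ± 0.08 (2.16-fold, adjusted p = 0.000209), and both calls held in all 13 alternatives run for each comparison. The Quad and QuadD falls of tkv differed by 0.47 ± 0.11, which did not pass (95% interval 0.22 to 0.72, adjusted p = 0.0658), except without Quad replicate 1 (0.52, adjusted p = 0.0468; range over the alternatives 0.0468 to 0.244). In the reference annotation an exon of tkv overlaps TpnC25D on the opposite strand, which was at most 1.64 RPKM in any library.

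The other type I receptor gene, sax, measured 62.2 and 63.6 RPKM in Quad and 68.5 and 64.2 RPKM in Ctrl. It measured 65.9 and 66.2 RPKM in QuadD and 71.4 and 75.0 RPKM in Ctrl-D. The misexpression libraries lay below their controls in both experiments, yet by little, -0.076 ± 0.097 and -0.14 ± 0.08 (adjusted p = 0.545 and 0.177), and the 95% intervals of -0.31 to 0.16 and -0.35 to 0.055 leave no fall as large as that of tkv. Within each library the level of tkv relative to sax was 2.74 and 2.85 in Ctrl and 1.84 and 1.93 in Quad. It was 2.52 and 2.33 in Ctrl-D and 1.26 and 1.21 in QuadD. Hence the ratio was lower in every misexpression library than in any driver-only library.

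Punt, a type II receptor, is used by both Dpp and activin-type ligands. Its gene put measured 75.3 and 69.4 RPKM in Quad and 82.5 and 70.1 RPKM in Ctrl, and these ranges overlapped (-0.073 ± 0.12, adjusted p = 0.629). In QuadD it measured 59.4 and 57.5 RPKM, against 82.4 and 84.8 RPKM in Ctrl-D. That fall was -0.51 ± 0.08 (adjusted p = 0.00354) and held in all 13 alternatives. The difference between the effects on put was 0.44 ± 0.14 and did not pass (adjusted p = 0.166; 95% interval 0.11 to 0.76).

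**Figure D2:**
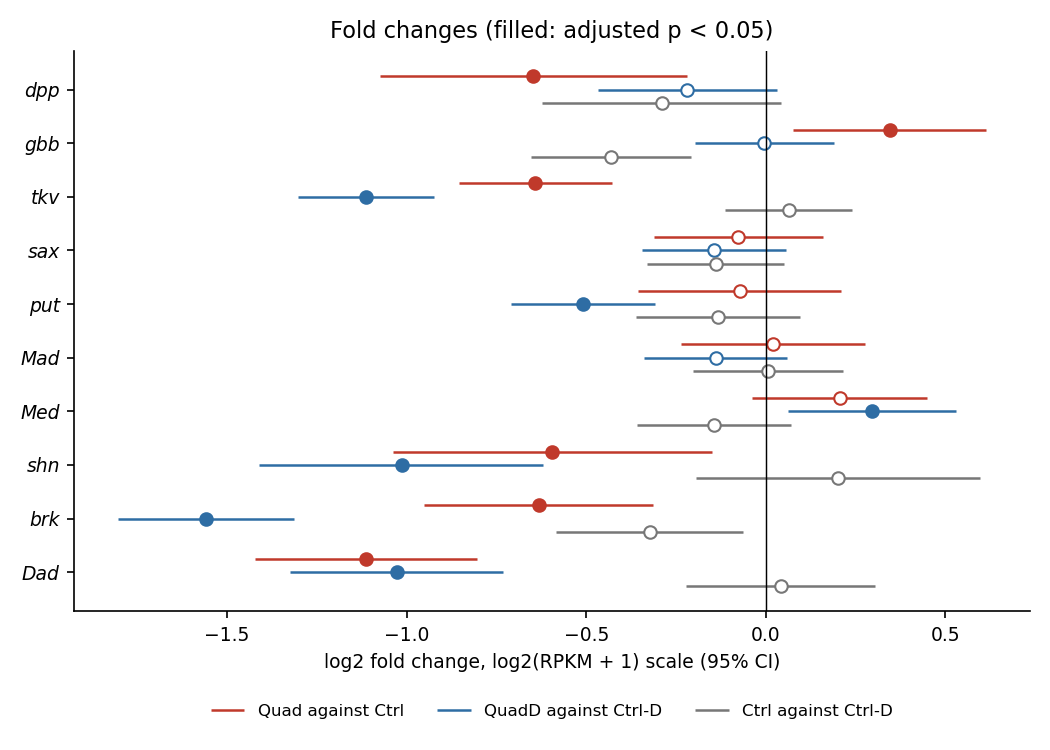
Log2 fold change on the log2(RPKM + 1) scale (horizontal axis, linear) of each Dpp pathway gene in Quad against Ctrl (red), QuadD against Ctrl-D (blue) and Ctrl against Ctrl-D (grey); points are limma estimates, filled where the adjusted p is below 0.05, and lines are 95% confidence intervals. The genes tkv, shn, brk and Dad have filled points left of 0 in red and blue, and every grey point is open.

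The Smad genes moved little. Mad, which carries the signal from the receptor, measured 82.1 and 72.7 RPKM in Quad and 78.7 and 73.7 RPKM in Ctrl. It measured 68.3 and 69.3 RPKM in QuadD and 77.6 and 74.2 RPKM in Ctrl-D. The log2 differences of 0.020 ± 0.11 and -0.14 ± 0.08 did not pass (adjusted p = 0.892 and 0.19), and the sign in Quad turned under quantile normalization (-0.058) and RLE scaling (-0.070). Med, the shared partner Smad, measured 57.1 and 61.3 RPKM in Quad against 51.3 and 51.0 RPKM in Ctrl (0.21 ± 0.10, adjusted p = 0.137). In QuadD it measured 72.1 and 67.6 RPKM against 59.7 and 53.7 RPKM in Ctrl-D. No libraries overlapped, and the rise of 0.30 ± 0.10 was just past the threshold (adjusted p = 0.0398). Its call was lost in 6 of 13 alternatives: without QuadD replicate 1 (0.25), without QuadD replicate 2 (0.34), without Ctrl-D replicate 2 (0.22), with no filter, with RLE scaling and without the trend. An exon of Med overlaps the more abundant CycG on the opposite strand in the reference annotation, and whether the authors' RPKM separate the strands is not given in the sources used here.

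The nuclear factor genes shn and brk fell in both experiments. The gene shn measured 11.1 and 9.47 RPKM in Quad libraries, against 17.8 and 14.3 RPKM in Ctrl. The groups did not overlap (-0.59 ± 0.18, adjusted p = 0.0381), but the call was lost without Quad replicate 2 (-0.49), without Ctrl replicate 1 (-0.45) and without Ctrl replicate 2 (-0.74), with quantile normalization and with no filter. In QuadD it measured 7.07 and 5.63 RPKM, against 14.4 and 13.2 RPKM in Ctrl-D. That fall was -1.01 ± 0.16 (2.02-fold, adjusted p = 0.00347) and was lost in 1 of 13 alternatives, with no filter (adjusted p = 0.0502; range over the alternatives 0.00151 to 0.0502).

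For brk, 25.7 and 29.4 RPKM in Quad stood against 46.0 and 40.6 RPKM in Ctrl. The fall was -0.63 ± 0.13 (1.55-fold, adjusted p = 0.00993). This call ended when Ctrl replicate 1 was left out (-0.55) or no filter was used. In QuadD brk measured 17.9 and 17.7 RPKM, against 52.2 and 56.4 RPKM in Ctrl-D. With -1.56 ± 0.10 (2.94-fold, adjusted p = 0.000169) this was the largest change among the 10 genes, and it held in all 14 alternatives. Quad held 1195 and 1434 deposited counts of brk where Ctrl held 2200 and 1882, and QuadD held 1000 and 420 where Ctrl-D held 1211 and 1251. These counts are not scaled to library size. The deposited counts of all genes summed to 6740835 and 2922038 in QuadD and to 2893271 and 2765722 in Ctrl-D. For brk, a test with limma's voom over genes with proportional counts gave -0.66 ± 0.11 in Quad and -1.57 ± 0.10 in QuadD (adjusted p = 0.00494 and 1.13e-06). The fall was deeper in QuadD: the effects differed by 0.93 ± 0.16 (95% interval 0.56 to 1.29, adjusted p = 0.0193), while 2.70% of the 10775 genes tested had a difference past the threshold, 1.76% in that direction. This call was lost in 8 of 17 alternatives, among them the removal of any 1 of the Ctrl, QuadD or Ctrl-D libraries (values between 0.84 and 1.01), with adjusted p-values from 0.0143 to 0.11 over all alternatives. Between the controls, brk was lower in Ctrl than in Ctrl-D by 0.32 ± 0.11 (adjusted p = 0.131).

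Dad measured 14.5 and 14.6 RPKM in Quad, against 32.5 and 32.6 RPKM in Ctrl. In QuadD it measured 15.8 and 14.3 RPKM, against 29.9 and 33.5 RPKM in Ctrl-D. All 4 misexpression libraries were thus at nearly the same level, as were all 4 driver-only libraries at a higher level. Ctrl stood 2.16-fold above Quad and Ctrl-D 2.04-fold above QuadD, as estimated on the log2(RPKM + 1) scale. The falls were -1.11 ± 0.13 in Quad (adjusted p = 0.00123) and -1.03 ± 0.12 in QuadD (adjusted p = 0.00121) and held in all 13 alternatives of each comparison. Their difference was -0.085 ± 0.16 (95% interval -0.46 to 0.29, adjusted p = 0.851). The genes brk and Dad, which the pathway is known to move in opposite directions, were therefore both lower, by the same measure, in both experiments. The ratio of brk to Dad was 1.41 and 1.24 in Ctrl and 1.78 and 2.02 in Quad, but 1.75 and 1.69 in Ctrl-D and 1.14 and 1.24 in QuadD, so it was higher in Quad and lower in QuadD than in the matching controls. The ratio of gbb to dpp was 12.2 and 10.8 in Quad, and lay between 5.22 and 7.20 in the other 6 libraries.

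**Figure D3:**
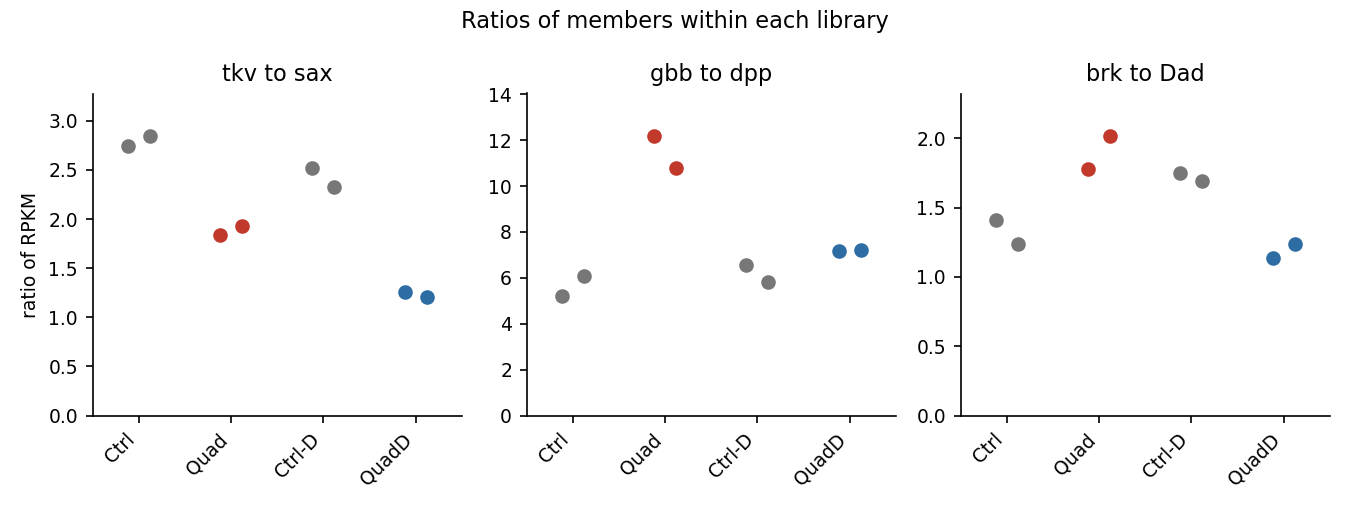
Ratios of RPKM (linear axes from 0) of tkv to sax, gbb to dpp and brk to Dad within each library; each point is 1 library of the group named below it. The tkv to sax ratio is lower in Quad (1.84 and 1.93) and QuadD (1.26 and 1.21) than in any control library, gbb to dpp is highest in Quad, and brk to Dad is above its control in Quad and below it in QuadD.

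The driver-only groups show how far the 10 genes differ between experiments without the transgenes. None of the 10 passed in Ctrl against Ctrl-D with limma (of 10775 genes 1.23% did, 0.752% higher and 0.483% lower in Ctrl), nor did brk with voom. The smallest unadjusted limma p-values among the 10 were 0.0019 for gbb and 0.0203 for brk. Among the 10775 genes these ranked 314 and 1673 by p. The libraries of 6 of the 10 did not overlap between these groups, 5 lower and 1 higher in Ctrl, as was true of 60.5% of all genes tested (31.2% lower and 29.3% higher). In Quad against Ctrl the libraries of 8 of the 10 did not overlap, 6 lower and 2 higher (77.1% of all genes, 35.6% lower and 41.5% higher), and in QuadD against Ctrl-D those of 9, 8 lower and 1 higher (81.3% of all genes, 39.1% lower and 42.2% higher).

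Outside the cell, Dpp and its relatives are bound, cut and moved by other proteins. Of 13 tested genes of that list, 3 fell and 1 rose in Quad (22.6% and 24.9% of all genes), and of 14 in QuadD, 6 fell and 2 rose (27.7% and 27.4% of all genes). Leaving out 1 library moved the falls to between 0 (without Ctrl replicate 1) and 4 in Quad and to between 3 (without QuadD replicate 1) and 6 in QuadD, and with no filter none of the list passed in Quad. The proteoglycan gene dally, whose product helps spread and retain Dpp, fell from 46.6 ± 4.23 to 29.3 ± 3.34 RPKM in Quad (-0.66 ± 0.14, adjusted p = 0.00961; the call was lost without Ctrl replicate 1, -0.57, and with no filter) and from 44.3 ± 0.853 to 19.1 ± 1.24 RPKM in QuadD (-1.17 ± 0.11, adjusted p = 0.000462). The related glypican gene dlp fell in QuadD by 0.81 ± 0.09 on the log2 scale. The protease gene tok fell by 0.51 ± 0.16 in Quad, a call lost without Quad replicate 2, Ctrl replicate 1 or Ctrl replicate 2, and by 1.02 ± 0.12 in QuadD. The gene cv-2, for a crossveinless protein that binds these ligands, fell by 0.45 ± 0.15 in Quad (adjusted p = 0.0449), a call that 5 of 14 alternatives ended, among them leaving out Ctrl replicate 1 (-0.37) or Ctrl replicate 2 (-0.54). The gene kek5, for a transmembrane modulator of this signalling, rose by 0.37 ± 0.11 in Quad (lost in 7 of 13 alternatives, among them without Quad replicate 1 and without Ctrl replicate 1 or 2) and by 0.71 ± 0.09 in QuadD. The early ligand gene scw was below 1 RPKM in every library and was not tested. The gene of the Dpp antagonist Short gastrulation, sog, named after its values were seen, measured 24.5 and 29.4 RPKM in Quad with 27.6 and 27.7 RPKM in its control (-0.039 ± 0.14, adjusted p = 0.834), and it fell in QuadD, from 31.5 ± 4.98 to 21.7 ± 1.80 RPKM (-0.51 ± 0.14, adjusted p = 0.0248). That call of sog was lost without QuadD replicate 1.

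In the activin branch, which shares Punt, 1 of 7 genes passed in Quad and 2 in QuadD, where 47.5% and 55.0% of all genes did. The ligand gene mav fell from 56.4 ± 6.34 to 37.7 ± 1.88 RPKM in Quad (-0.57 ± 0.12, adjusted p = 0.0114; lost without Ctrl replicate 1, -0.45, and with no filter). In QuadD the ligand gene Actbeta rose from 2.87 ± 0.303 to 7.67 ± 0.969 RPKM (1.16 ± 0.18, adjusted p = 0.00287). The type II receptor gene wit is in this list, though its product is known for bone morphogenetic protein signalling at the neuromuscular junction. In QuadD wit rose from 3.99 ± 0.378 to 7.69 ± 0.50 RPKM (0.80 ± 0.16, adjusted p = 0.00822). The call was lost without QuadD replicate 2 (0.74) and with no filter.

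Among 12 genes for regulators and nuclear partners of the Smads, 6 rose and none fell in Quad, and 6 rose and 2 fell in QuadD. Of all genes, 24.9% rose and 22.6% fell in Quad, and 27.4% rose and 27.7% fell in QuadD. With no filter 3 rose in Quad and 0 in QuadD. Leaving out QuadD replicate 1 or QuadD replicate 2 left 1 rise in QuadD. The corepressor gene gro rose from 119 ± 0.0552 to 226 ± 5.23 RPKM in Quad (0.92 ± 0.08, adjusted p = 0.000617) and from 140 ± 19.8 to 228 ± 2.99 RPKM in QuadD (0.71 ± 0.11, adjusted p = 0.00327; lost with no filter). CtBP, which encodes a corepressor that Brk can recruit, as it can Gro, rose by 0.64 ± 0.08 in Quad and by 0.42 ± 0.13 in QuadD, the latter lost in 6 of 13 alternatives, among them without QuadD replicate 1, QuadD replicate 2 or Ctrl-D replicate 2 (0.26). The gene Dd, for the phosphatase Dullard, rose by 0.68 ± 0.10 and 0.46 ± 0.13, and sbb, which in the wing lowers tkv expression, by 0.70 ± 0.12 (lost with no filter) and 0.40 ± 0.10. In QuadD the kinase gene nmo (0.35 ± 0.09) and the acetyltransferase gene nej (0.49 ± 0.14) rose too. The QuadD calls of Dd, sbb, nmo and nej were lost in 5, 3, 3 and 4 of 13 alternatives, each without QuadD replicate 1 and without QuadD replicate 2, and that of Dd also without Ctrl-D replicate 2 (0.28). The genes that fell were Snoo, for a Ski family corepressor (-0.61 ± 0.21, adjusted p = 0.0475), and sgg, for the kinase Shaggy (-0.25 ± 0.09, adjusted p = 0.0495), both named after their values were seen. Both calls were lost with another pseudocount, with another filter or none and without QuadD replicate 1, QuadD replicate 2 or Ctrl-D replicate 2, and 1 gene of the list fell without Ctrl-D replicate 1.

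Of 19 tested genes listed as Dpp targets or dorsal regulators, 7 fell and 1 rose in Quad, and 4 fell and 6 rose in QuadD. The medians were -0.46 and -0.10 on the log2 scale. Of all genes, 22.6% fell and 24.9% rose in Quad, and 27.7% fell and 27.4% rose in QuadD. The falls in Quad numbered 2 without Ctrl replicate 1, 3 without Ctrl replicate 2 and with no filter, and 12 without Quad replicate 2. The rises in QuadD numbered 3 without QuadD replicate 1, and with no filter 3 rose and 1 fell there. The GATA factor gene pnr, a marker of dorsal ectoderm, measured 19.7 and 30.5 RPKM in Quad and 55.4 RPKM in both Ctrl libraries (-1.15 ± 0.20, adjusted p = 0.0056; lost in 1 of 13 alternatives, with no filter). In QuadD pnr measured 61.1 and 58.5 RPKM against 73.9 and 65.9 RPKM and did not pass (-0.22 ± 0.10, adjusted p = 0.0942, but past the threshold with RLE scaling and without Ctrl-D replicate 2). The difference of its effects was -0.93 ± 0.24 (adjusted p = 0.101), and it passed without Quad replicate 2 (-1.23, adjusted p = 0.00494; range over the alternatives 0.00494 to 0.304). The T-box gene Doc2 (-0.53 ± 0.10) and the zinc finger gene salm (-0.64 ± 0.12) fell in QuadD, calls lost with all 8 libraries in the fit (Doc2) and with no filter (salm), as did the neighbouring T-box genes Doc1 (-0.52 ± 0.12) and Doc3 (-0.65 ± 0.13), the last pair named after their values were seen. The calls of Doc1 and Doc3 were lost with no filter too. In Quad, Doc1 (-0.505 ± 0.203), Doc2 (-0.498 ± 0.251) and Doc3 (-0.461 ± 0.228) were also lower but did not pass (adjusted p = 0.0846, 0.149 and 0.142). Their Quad effects minus QuadD effects were 0.014, 0.034 and 0.19 (adjusted p = 0.99, 0.976 and 0.802). The TNF gene egr rose in both experiments, by 0.67 ± 0.13 and 0.39 ± 0.09, the first call being lost with no filter, and leaving out either QuadD library ended the second (0.44 without replicate 1, 0.35 without replicate 2).

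Among these targets, 3 genes passed the test of the difference of effects, and their separate estimates had opposite signs in the experiments. The zinc finger gene peb, also called hindsight and active in the amnioserosa, measured 31.6 and 32.2 RPKM in Quad against 58.2 and 52.2 RPKM in Ctrl. In QuadD peb measured 80.1 and 69.4 RPKM against 55.3 and 46.0 RPKM. It fell by 0.77 ± 0.11 in Quad and rose by 0.55 ± 0.13 in QuadD, the rise being lost without QuadD replicate 1 (0.45) and with no filter. The LIM homeobox gene tup measured 52.5 and 55.5 RPKM in Quad against 81.0 and 72.7 RPKM in Ctrl, and 114.8 and 118 RPKM in QuadD against 78.5 and 80.6 RPKM in Ctrl-D. Its fall of 0.50 ± 0.10 in Quad was lost without Ctrl replicate 1 (-0.42) and with no filter, and its rise of 0.54 ± 0.08 in QuadD held in all 13 alternatives. The Hox gene lab, which Dpp induces in the midgut, measured 6.19 and 6.57 RPKM in Quad against 9.96 and 11.6 RPKM in Ctrl, and 18.3 and 17.4 RPKM in QuadD against 10.3 and 8.68 RPKM in Ctrl-D (-0.67 ± 0.18 and 0.85 ± 0.14; the fall was lost in 4 of 13 alternatives, among them without either Ctrl library). Quad effect minus QuadD effect was -1.32 ± 0.17 for peb, -1.04 ± 0.12 for tup and -1.52 ± 0.21 for lab (adjusted p = 0.00476, 0.00314 and 0.0077), where 0.937% of all genes passed in that direction. The call of peb was lost with no filter (adjusted p = 0.0575; range over the alternatives 0.00321 to 0.0575).

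**Figure D4:**
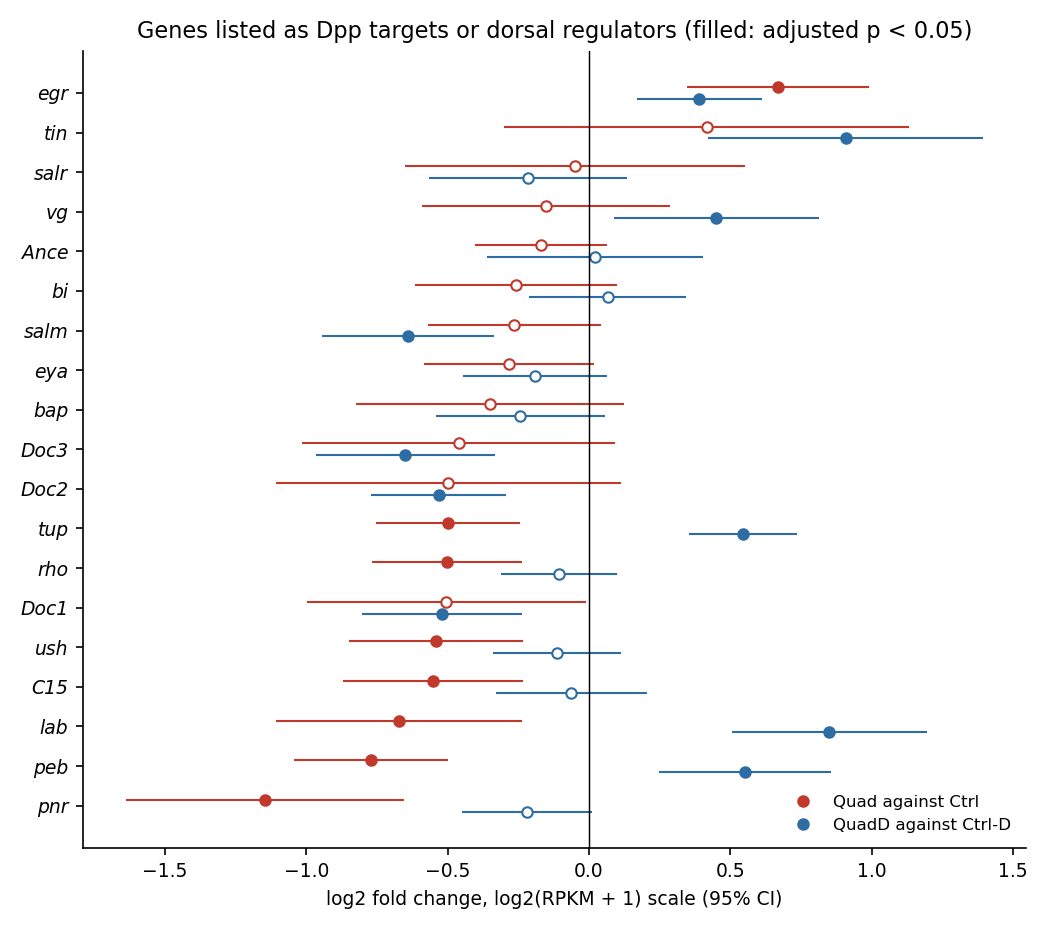
Log2 fold change on the log2(RPKM + 1) scale (horizontal axis, linear) of the 19 tested genes listed as Dpp targets or dorsal regulators, in Quad against Ctrl (red) and QuadD against Ctrl-D (blue), ordered by the Quad value; filled points have an adjusted p below 0.05 and lines are 95% confidence intervals. The genes pnr, peb, lab and tup lie left of 0 in red, and peb, lab and tup lie right of 0 in blue.

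The JNK pathway maintains dpp expression in the leading edge of the epidermis during dorsal closure. Of its 8 listed genes 2 fell and 0 rose in Quad, and 3 fell and 2 rose in QuadD. Of all genes, 22.6% fell and 24.9% rose in Quad, and 27.7% fell and 27.4% rose in QuadD. No gene of the list fell in Quad without Ctrl replicate 1, without Ctrl replicate 2 or with no filter, and 1 rose in QuadD without QuadD replicate 2. The Fos gene kay fell by 0.63 ± 0.15 in Quad, a call lost without Ctrl replicate 1, without Ctrl replicate 2 and with no filter, and by 0.69 ± 0.14 in QuadD (lost with no filter). The ETS repressor gene aop fell by 0.41 ± 0.11 in Quad (lost in 4 of 13 alternatives, among them without Ctrl replicate 1 or Ctrl replicate 2) and by 0.90 ± 0.11 in QuadD. In QuadD the kinase gene bsk rose by 0.50 ± 0.08, and puc, a phosphatase gene induced by JNK, by 0.54 ± 0.10 (lost without QuadD replicate 2, 0.47). The kinase gene msn, named after its values were seen, fell there (-0.29 ± 0.08).

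Over the 8 libraries, the genes whose log2(RPKM + 1) followed that of dpp most closely were ush, pnr and caup (Pearson r = 0.98 each, among 4220 genes averaging 10 RPKM or more in both tables; the libraries form 4 groups and the value is a description). The gene ush, for a partner of Pannier and itself in the list of targets, measured 28.9 and 33.7 RPKM in Quad, and 43.9 to 54.7 RPKM over the other 6 libraries. The Iroquois homeobox gene caup measured 21.1 and 25.9 RPKM in Quad, and 39.6 to 49.7 RPKM over the other 6. For dpp and these genes alike, both Quad libraries were the lowest of the 8. The closest to Dad were eyg, Sans and Sec63 (r between 0.997 and 0.998).

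Lists of tissue markers were set beside the 10 genes. Of all genes tested, 22.6% fell and 24.9% rose in Quad, and 27.7% fell and 27.4% rose in QuadD. All 10 epidermis markers fell in both experiments, their summed level going from 1480 and 1958 RPKM in Ctrl to 143.8 and 119.0 RPKM in Quad, and from 999.4 and 1262 RPKM in Ctrl-D to 70.9 and 59.3 RPKM in QuadD. Many of them are cuticle genes, so the sum does not measure the amount of epidermis. Their median log2 fold change was -3.36 in Quad and -3.94 in QuadD, while the transcription factor gene grh gave -1.11 ± 0.10 and -1.16 ± 0.09. Of 10 genes listed as neuron markers 5 rose in Quad and 10 in QuadD, their sum going from between 764 and 796.5 RPKM in Ctrl to 1026 to 1329 RPKM in Quad, and from between 775 and 784 RPKM in Ctrl-D to 1335 to 1356 RPKM in QuadD. The largest single part of that sum was nrv2, which is not only neuronal. It measured 337 and 336 RPKM in Ctrl and 478 and 406 RPKM in Quad. In Ctrl-D nrv2 measured 346 and 346 RPKM, and in QuadD 481 and 436 RPKM. Of 10 mesoderm and muscle markers 3 fell and 2 rose in Quad and 6 fell and 2 rose in QuadD. Their sum was 2289 RPKM in Quad replicate 1 and 1460 RPKM in replicate 2, 2341 to 2940 RPKM in Ctrl, 1091 to 1210 RPKM in QuadD and 1758 to 1918 RPKM in Ctrl-D. Most of that sum was Act57B, at 1703.5 and 968 RPKM in Quad and 1628 and 2172 RPKM in Ctrl. In QuadD Act57B measured 760 and 658 RPKM, and in Ctrl-D 1146 and 1333 RPKM. Maternal transcripts rose in 5 of 10 tested genes in Quad and 5 of 9 in QuadD (sums of 493 to 512.5 RPKM in Ctrl, 944 to 947 RPKM in Quad, 523.5 to 633 RPKM in Ctrl-D and 878 to 945 RPKM in QuadD). The largest single part of that sum was CycB, a mitotic cyclin gene that is not only maternal, at 253 and 246 RPKM in Ctrl, 543 and 594 RPKM in Quad, 384 and 298.5 RPKM in Ctrl-D and 547 and 587 RPKM in QuadD; nos, pum, exu, cad and gcl did not pass in Quad. Of 7 tested amnioserosa markers, all of them also in the list of targets, 3 fell and 1 rose in Quad and 2 fell and 3 rose in QuadD, with sums of 434 to 482 RPKM in Quad, 540 to 543 RPKM in Ctrl, 605 to 691 RPKM in QuadD and 588 to 612 RPKM in Ctrl-D. No marker was at the floor of the tables in any library, although zen, knk, sha, osk, exu and bcd went below 1 RPKM in at least 1. The part of these markers' tissues in the falls of tkv, shn, brk and Dad was not tested.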

How the data were processed

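Per the labels' protocols, total RNA of whole embryos was extracted with an RNeasy kit and sequenced as single reads of 50 bp, 1 lane for each of 2 experiments. Per the file headers, the authors deposited linear total RPKM for each gene and library; a floor of 0.002 or 0.003 RPKM stands in place of 0. The deposited raw counts (the other unit used) were proportional to RPKM for 5067 of 17321 genes and held part of the reads of others (4 of the 10 genes had 0 in all libraries, and 414 genes a dash). No aligner, counter, genome build, annotation or strand setting is given in the sources used here, and coordinates are left out; overlaps between genes come from the Ensembl annotation of BDGP6.

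A gene entered a fit if 2 or more of its libraries reached 1 RPKM, and was tested as log2(RPKM + 1) with limma 3.58.1 in R 4.3.3 (trended moderated test, Benjamini-Hochberg adjustment, threshold 0.05). Quad and QuadD were each fitted with their own control (4 libraries). The difference of effects and Ctrl against Ctrl-D came from all 8 libraries. The fit was tested on simulated data, in which every gene had the same spread and few genes changed. That setting differs from these data, so the test checks the code and not the calls. The genes, lists and tests were chosen with earlier results of these data known. From each of 5 pathway lists (62 entries) up to 4 genes per comparison with the smallest p among those past the threshold are named, and for dpp and Dad the 3 genes of most similar pattern. The genes scw, sog, Snoo, sgg, Doc1, Doc3 and msn, and single tissue markers, were named outside this rule, after their values were seen. The marker duf was matched to kirre. The p-values rest on the spread between 2 collections per group, moderated by the spread of the other genes in the fit. Alternatives were other pseudocounts, filters, scalings, variance models, all 8 libraries in a fit, the replicate number as a block, leaving out each library and, added after seeing the data, voom on genes with proportional counts.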

Additional observations from a re-analysis of the deposited data

Results flagged for a closer look

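The test of the difference between the Quad and QuadD effects passed for 1 Dpp pathway gene, for 3 of the listed genes named and for the misexpressed gene Kr. Quad effect minus QuadD effect was 0.93 for brk (adjusted p = 0.0193 with limma), which fell in both experiments, in 2 of 2 libraries each, and further in QuadD; this call was lost in 8 of 17 alternatives. It was -1.32 for peb (adjusted p = 0.00476), -1.04 for tup (adjusted p = 0.00314) and -1.52 for lab (adjusted p = 0.0077), and for these 3 genes both Quad libraries lay below Ctrl and both QuadD libraries above Ctrl-D. The call was lost with no filter for peb (adjusted p = 0.0575; range over the alternatives 0.00321 to 0.0575) and without Ctrl replicate 2 for lab (-1.42, adjusted p = 0.0515; range over the alternatives 0.00476 to 0.0515). For Kr it was 1.26 (adjusted p = 0.0138), higher in 2 of 2 Quad libraries and overlapping its control in the libraries labelled QuadD. Between the controls, Ctrl against Ctrl-D was -0.635 ± 0.144 for Kr with limma (adjusted p = 0.0642).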

How the results depend on the processing

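Counts of genes past the threshold moved by over 1.5 times with no filter on low values (2696 in Quad, 3140 in QuadD, 186 for the difference of effects, 78 for Ctrl against Ctrl-D). With voom, 2222 of 4533, 2301 of 4139, 114 of 4632 and 32 of 4632 genes passed, in the same order. These counts come from the smaller set of genes with proportional counts and are not to be set against the main counts as such. Leaving out 1 library gave 2444 to 5325 in Quad, 3293 to 5128 in QuadD, 126 to 495 for the difference and 4 to 983 for the controls; limma without the trend gave 30 for the controls. The main counts were 4956 of 10436, 5618 of 10207, 291 of 10775 and 133 of 10775 genes tested. Quantile normalization moved the median log2 fold change of all genes in QuadD from 0.034 to 0.14.

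Of the Dpp pathway genes, 5 fell and 1 rose in Quad and in QuadD. With no filter, 2 fell and 0 rose in Quad and 0 rose in QuadD. No gene rose, in either experiment, with RLE scaling (0) or without the trend (0). Leaving out 1 library left 2 to 5 falls and 0 to 1 rises in Quad, 0 to 1 rises in QuadD, 0 to 2 positive differences of effects (1 otherwise, 0 with no filter) and 0 to 1 genes lower in Ctrl than in Ctrl-D. The calls of tkv and Dad held in both experiments under every alternative run, as did those of put and brk in QuadD. The following values, none past the threshold, changed sign: Mad in Quad with quantile normalization (-0.058), RLE scaling (-0.070) and leaving out 1 library (-0.067 to 0.11), put in Quad leaving out 1 library (-0.19 to 0.042), gbb in QuadD with quantile normalization (0.0090) and leaving out 1 library (-0.041 to 0.033), and Mad (-0.042 to 0.053) and Dad (-0.039 to 0.12) between the controls, again leaving out 1 library. Beyond what each setting changes by construction, the cause was not tested.

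The replicate numbers did not pair the libraries: same-numbered deviations correlated at r = -0.044 over genes in experiment 1 and -0.087 in experiment 2. With the replicate block, 174 genes passed for the difference of effects and 11 between the controls, no Dpp pathway gene (0) passed for the difference (brk 0.93, adjusted p = 0.0707; range over the alternatives 0.0143 to 0.11), and the calls of tok (-0.51) and cv-2 (-0.45) in Quad were lost; the falls among the Smad regulators in QuadD went from 2 to 0, and no other call of a gene named by the rule changed. With 2 libraries per group and no usable counts but for brk, the depth behind single values is unknown.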
